A study of Mus musculus with 15 samples.

Results

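The genes described here are 10 genes of the mural cells that wrap retinal vessels, together with the endothelial signal that recruits those cells. They are the ligand gene Pdgfb, its receptor gene Pdgfrb, the pericyte genes Rgs5, Notch3, Cspg4, Des and Vtn, and the contractile smooth muscle genes Acta2, Myh11 and Tagln. They were chosen by gene symbol, with no threshold on measured values, and make up 10 of the 18194 genes on the array and 22 of its 34958 probe sets with 1 symbol. Retinal endothelial cells of adult mice had been enriched with beads that carry an antibody to PECAM, an endothelial adhesion protein, and their RNA was measured on Affymetrix mouse arrays. The groups were Fz4-/- (3 arrays, mice without the receptor Frizzled4), Lrp5-/- (3 arrays, mice without the coreceptor Lrp5), Norrin KO (3 arrays, mice without the secreted ligand Norrin) and wild type (6 arrays). All mice were on a mixed C57Bl6 and 129 background. Each of the 15 pools came from 5 to 10 mice, and p-values therefore rest on the spread of pools, not of single animals.

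Pericytes sit on capillaries inside the vascular basement membrane, and smooth muscle cells encircle arterioles. Both are drawn to growing vessels by platelet-derived growth factor B, which endothelial cells secrete and hold close by, and which acts on the receptor PDGFRβ of the mural cell. Retinal capillaries are covered densely by pericytes, and Norrin, Frizzled4 and Lrp5 act in the endothelium itself, where they signal through β-catenin. A mural gene measured in PECAM-enriched cells can come from mural cells that stayed attached to the endothelium. In such bulk samples fewer cells of a type and less RNA per cell cannot be told apart.

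In the mutants vitronectin, a matrix protein that pericytes make, fell in all 3 genotypes, by 4.02-fold in Fz4-/-, 1.79-fold in Lrp5-/- and 5.27-fold in Norrin KO (3 arrays of each against 6 of wild type, adjusted p of 0.00458 or lower in limma). With 1 probe set per gene, none of the other pericyte members fell. Pdgfrb, Rgs5, Notch3 and Des did not pass against wild type in the fit of all arrays, and Cspg4, the NG2 proteoglycan, rose 1.55-fold in Fz4-/- and 1.89-fold in Norrin KO. The contractile gene Tagln fell 1.78-fold in Norrin KO, whereas Acta2 and Myh11 passed no test at that level. Pdgfb fell 1.84-fold in Lrp5-/-.

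The upstream sequences of Vtn and Cspg4, the members with the most negative and the most positive change over the mean of the mutants, are shown as the letters behind the results that stand out. Each is the stretch of 250 bases just before the gene's start in the RefSeq promoter table (build GRCm38.p6). Promoters were found for 6 of the 10 members (Acta2, Cspg4, Des, Notch3, Rgs5 and Vtn). None was found for Pdgfb, Pdgfrb, Myh11 or Tagln. The promoters of a single chromosome had been left out, which does not account for every missing member. Both genes lie on the plus strand, Vtn at chr11:78498870-78499119 and Cspg4 at chr9:56864854-56865103, and capitals mark a match to one of the 6-letter motifs searched.
Vtn: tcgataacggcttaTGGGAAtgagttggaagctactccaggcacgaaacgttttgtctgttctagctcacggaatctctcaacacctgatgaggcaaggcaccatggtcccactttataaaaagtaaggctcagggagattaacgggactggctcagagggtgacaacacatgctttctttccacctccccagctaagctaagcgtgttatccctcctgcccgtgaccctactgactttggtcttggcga
Cspg4: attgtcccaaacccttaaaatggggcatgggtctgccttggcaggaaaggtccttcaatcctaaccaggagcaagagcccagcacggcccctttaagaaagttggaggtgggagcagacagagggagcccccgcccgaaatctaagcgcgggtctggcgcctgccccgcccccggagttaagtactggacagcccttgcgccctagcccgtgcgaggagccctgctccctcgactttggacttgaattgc
The motifs were CTTTGA and CTTTGT, the core of sites for the TCF and LEF partners of β-catenin, TGGGAA, the core of sites for the Notch partner RBPJ, and the CArG box of contractile genes, each on both strands. Vtn held 1 match to TGGGAA, 236 bases before the start, and Cspg4 held no match to any of them. Of the other members, Rgs5 held CTTTGA on the minus strand 20 bases before its start and Acta2 held TGGGAA 27 bases before its start. Among 32851 promoters of the same length 27.6% held CTTTGA or CTTTGT, 21.6% held TGGGAA and 1.47% held a CArG box. No matches in the members overlapped, and a match describes these letters only.

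The arrays gave RMA signals on a log2 scale, on which 1 unit is a 2-fold difference. Fzd4 signal was 3.98 to 4.56 in Fz4-/- and 11.80 to 12.27 in wild type, and Lrp5 signal was 4.40 to 5.25 in Lrp5-/- and 7.22 to 7.95 in wild type. Ndp, which encodes Norrin, was at 3.88 to 4.96 in every group and checks no label. The mean of 12 endothelial markers was 11.66 to 11.94 over the 15 arrays. Norrin KO 1 stood out by the gap between 3′ and 5′ signals of its actin control, 2.92 against 0.558 to 1.46 on the others. The other Norrin KO arrays were at 1.05 and 1.46, and no array of another group was above 1.04. A wider gap and the Norrin KO genotype therefore go together on these arrays. Lrp5-/- 1, Lrp5-/- 3 and wild type 4 lay apart on the second principal component (17.8% of the variance). The female-specific transcript Xist was high in every Fz4-/- pool and low in every Norrin KO pool, although the labels give both sexes. By Xist and the Y-linked Eif2s3y, Fz4-/- 1 to 3 matched wild type 1 to 3 array by array, and Lrp5-/- 1 to 3 matched wild type 4 to 6, with deviations from the group means that correlated at 0.0601 to 0.381 and at 0.257 to 0.661.

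**Figure D1:**
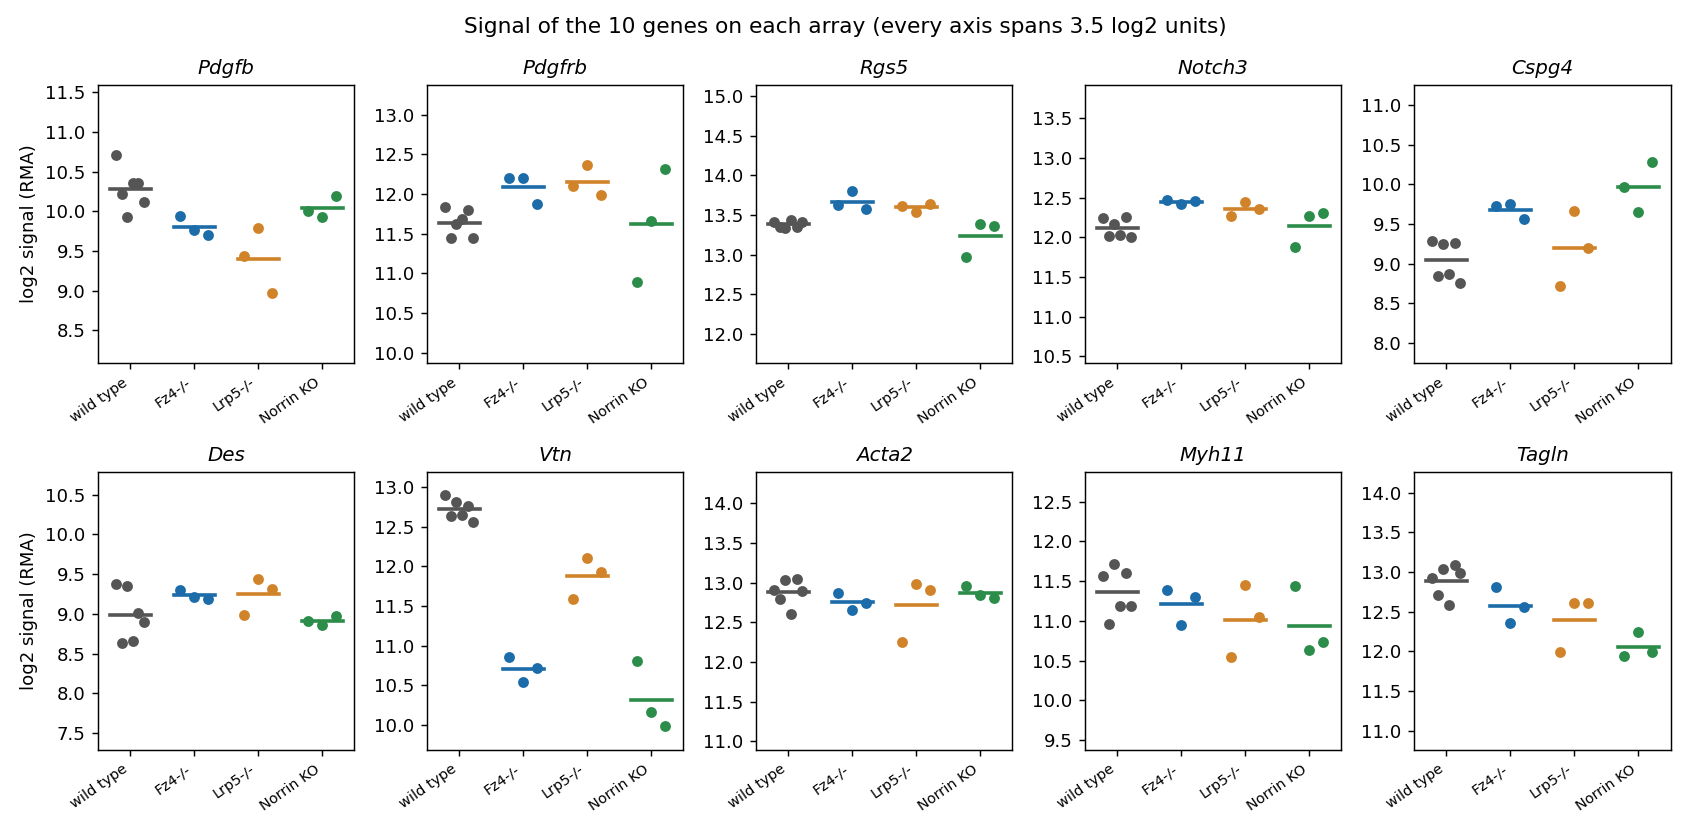
Log2 RMA signal of the 10 genes (y axis, 3.5 log2 units in each panel) by group, 1 point per array and a bar at the group mean. Vtn lies below wild type on all 9 mutant arrays, and Tagln below wild type on the 3 Norrin KO arrays.

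The panels of signal by array show the spread behind each value, and the rows of the plot of changes show each mutant against wild type. The threshold was an adjusted p of 0.05 in limma, with Benjamini-Hochberg adjustment over all 18194 genes. In Fz4-/-, 1 of the 10 members rose (Cspg4) and 1 fell (Vtn), where 10.7% of all genes rose and 6.08% fell. In Lrp5-/-, none rose and 2 fell (Pdgfb and Vtn), where 5.63% of all genes rose and 7.27% fell. At an unadjusted p under 0.05, 1 member was higher there (Pdgfrb). In Norrin KO, 1 member rose (Cspg4) and 2 fell (Tagln and Vtn), where 16.7% of all genes rose and 9.13% fell. Over the mean of the 3 mutants 1 member rose (Cspg4) and 3 fell (Pdgfb, Tagln and Vtn), where 14% of all genes rose and 9.91% fell. The numbers of members that rose are thus near what the background share gives. Those that fell over the mean are above it, a description with no test, of members chosen with earlier results known. That number was 1 with same-numbered arrays as a block, with a 2-fold minimum, or with the mean of Kcnj8, Abcc9 and Higd1b as a covariate. The share of all genes is not given for those settings. The median change of the 10 members over the mean of the mutants was 0.01 beside −0.01 for all genes.

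**Figure D2:**
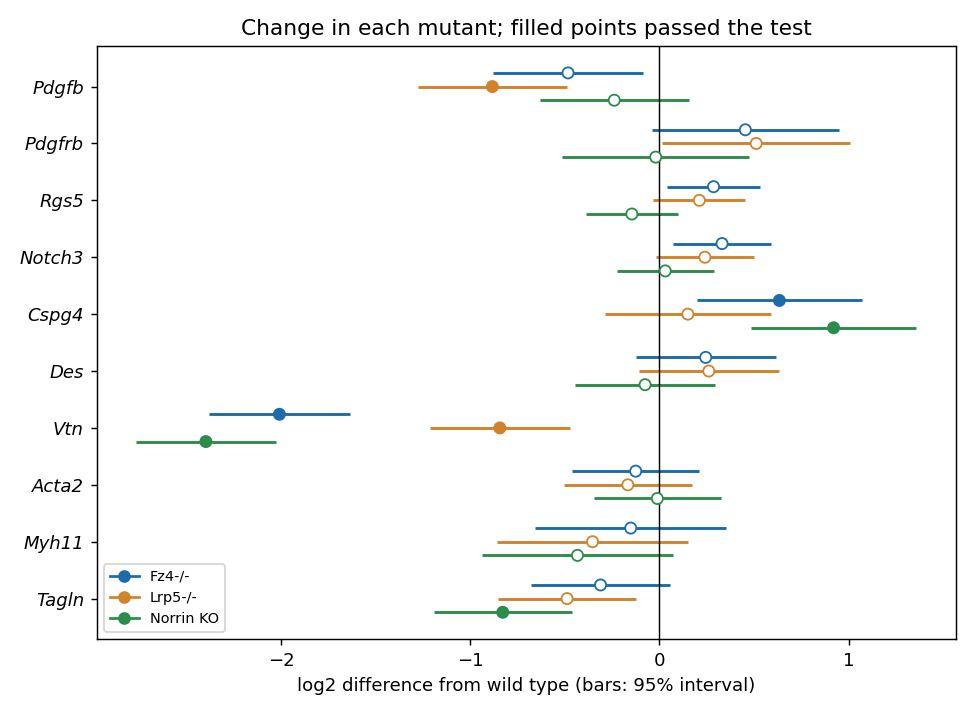
Log2 difference from wild type (x axis) of the 10 genes in Fz4-/-, Lrp5-/- and Norrin KO, with 95% intervals, where filled points passed the test. Vtn is filled in all 3 mutants, at −2.01, −0.84 and −2.40.

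Pdgfb, the endothelial ligand, was at 9.93, 10.29 and 10.71 (lowest, median and highest log2 signal) in wild type. It was at 9.43, 9.78 and 8.97 in Lrp5-/-, at 9.94, 9.76 and 9.70 in Fz4-/-, and at 10.00, 9.92 and 10.20 in Norrin KO. All 3 Lrp5-/- arrays lay below every wild-type array, while the other mutants overlapped the wild-type range. Pdgfb fell by 0.88 ± 0.184 (SE) on the log2 scale in Lrp5-/- (adjusted p = 0.0051, limma). It was at −0.48 in Fz4-/- (adjusted p = 0.0923) and at −0.24 in Norrin KO (adjusted p = 0.368), and over the mean of the mutants it fell by 0.53 (adjusted p = 0.0102). Without Lrp5-/- 1, Lrp5-/- 3 and wild type 4 the Lrp5-/- difference was −0.48 (adjusted p = 0.445, with 1 array left that was assumed to vary like the others). The Lrp5-/- call was lost in 5 of 32 settings. Among them were the fits with macrophage markers (−0.62, adjusted p = 0.0936) and with rod markers (−0.83, adjusted p = 0.0713). With macrophage markers in the fit the difference over the mean was −0.21 (adjusted p = 0.600), and the call over the mean was lost in 7 of 30 settings. The dimmer Pdgfb probe set 1450413_at did not pass, at −0.58 in Lrp5-/- (adjusted p = 0.352).

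Pdgfrb, the receptor for that ligand on mural cells, was at 11.45, 11.65 and 11.84 (lowest, median, highest) in wild type. It was at 12.21, 12.20 and 11.88 in Fz4-/-, at 12.10, 12.36 and 11.99 in Lrp5-/-, and at 10.89, 11.66 and 12.32 in Norrin KO. All Fz4-/- and Lrp5-/- arrays were above every wild-type array, and the Norrin KO arrays spread on both sides of them. The differences were 0.45 (95% interval −0.04 to 0.95, adjusted p = 0.216), 0.51 (0.02 to 1.01, adjusted p = 0.185) and −0.02 (−0.52 to 0.48, adjusted p = 0.960), and none passed. With the matched arrays as a block and Norrin KO left out, Pdgfrb passed in Fz4-/- (adjusted p = 0.0483) and in Lrp5-/- (adjusted p = 0.0375). It also passed in both when only the 2 groups compared were fitted (adjusted p = 0.0444 and 0.0434). Norrin KO 1 was the lowest Pdgfrb array of all, and without it Pdgfrb passed in Lrp5-/- (adjusted p = 0.0491) and over the mean of the mutants (log2 0.44, adjusted p = 0.0197). The other probe set, 1436970_a_at, gave 0.11, 0.28 and −0.42 in Fz4-/-, Lrp5-/- and Norrin KO, with no call against wild type. On it the Norrin KO arrays, at 11.10 to 11.53, all lay below the lowest wild-type array at 11.59 (adjusted p = 0.0581 over probe sets, limma). The Pdgfrb probe sets thus differed in Norrin KO.

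Rgs5, a regulator of G protein signalling that marks pericytes, had high signal on every array and little spread. It was at 13.33 to 13.44 (median 13.39) in wild type, at 13.62, 13.81 and 13.58 in Fz4-/-, at 13.61, 13.54 and 13.64 in Lrp5-/-, and at 12.97, 13.38 and 13.36 in Norrin KO. The Fz4-/- and Lrp5-/- arrays were all above wild type, by 0.29 (adjusted p = 0.108) and 0.21 (adjusted p = 0.283), which did not pass, and Norrin KO was at −0.15 (adjusted p = 0.374). Of its other probe sets, 1417466_at and 1420942_s_at gave 0.11 and 0.25 over the mean of the mutants, and 1420940_x_at, whose probes can bind other transcripts, gave 0.27. In Fz4-/- these were at 0.12, 0.44 and −0.11, and only 1420942_s_at lay above all wild-type arrays. In Lrp5-/- they were at 0.26, 0.47 and 0.73, each above all wild-type arrays, and none passed. Without Norrin KO 1, Rgs5 passed in Fz4-/- (adjusted p = 0.0435), as it did with eBayes trend and robust (adjusted p = 0.0168).

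Notch3, the Notch receptor of mural cells, also had little spread. Wild type was at 12.00 to 12.25 (median 12.10), Fz4-/- at 12.46, 12.43 and 12.45, Lrp5-/- at 12.27, 12.44 and 12.36, and Norrin KO at 11.87, 12.27 and 12.30. The Fz4-/- and Lrp5-/- arrays lay above all wild-type arrays. The differences were 0.33 (adjusted p = 0.0769), 0.24 (adjusted p = 0.239) and 0.03 (adjusted p = 0.876). Without Norrin KO 1, Notch3 passed in Fz4-/- (adjusted p = 0.0319) and over the mean of the mutants (adjusted p = 0.0303). In Fz4-/- it also passed among genes above the median (adjusted p = 0.0396) and with eBayes trend and robust (adjusted p = 0.0195). The second probe set, 1421964_at, gave 0.43, 0.29 and −0.01.

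Cspg4, the NG2 proteoglycan that pericytes and oligodendrocyte precursors carry on their surface, was the only member that rose with 1 probe set per gene. Its wild-type arrays were at 8.76, 9.06 and 9.29 (lowest, median, highest). Norrin KO was at 9.96, 9.65 and 10.29 and Fz4-/- at 9.72, 9.75 and 9.56, all above every wild-type array, while Lrp5-/- was at 8.72, 9.67 and 9.20 and overlapped wild type. Cspg4 rose by 0.92 ± 0.204 (SE) in Norrin KO (adjusted p = 0.0043) and by 0.63 ± 0.204 in Fz4-/- (adjusted p = 0.0472), and was at 0.15 in Lrp5-/- (adjusted p = 0.754). The Fz4-/- call lay near the threshold and was lost in 19 of 32 other settings, among them leaving out any of the Fz4-/- arrays, Lrp5-/- 3, Norrin KO 1, or wild type 2, 4 or 6, and with the matched arrays as a block (adjusted p = 0.068). The Norrin KO call was lost in 5 of 31, among them with the actin gap in the fit (0.86, adjusted p = 0.0686). With the macrophage marker mean in the fit, the difference over the mean of the mutants was 0.61 and did not pass (adjusted p = 0.179). With the mean of Kcnj8, Abcc9 and Higd1b, pericyte genes outside the 10, as a covariate, Cspg4 was at 0.085 over the mean (adjusted p = 0.884), 0.095 in Fz4-/- (adjusted p = 0.920) and 0.63 in Norrin KO (adjusted p = 0.0504), and none passed. Kcnj8, Abcc9 and Higd1b were themselves at 0.32, 0.71 and 0.29 over the mean of the mutants, and of these only Abcc9 passed. Their mean is thus not independent of genotype and can take up part of a mutant difference. The dimmer Cspg4 probe set 1450944_at gave 0.61, 0.29 and 0.65 in Fz4-/-, Lrp5-/- and Norrin KO and did not pass.

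Des, which encodes the muscle intermediate filament desmin, was at 8.64 to 9.37 (median 8.95) in wild type. It was at 9.30, 9.21 and 9.19 in Fz4-/-, at 8.98, 9.44 and 9.32 in Lrp5-/-, and at 8.90, 8.86 and 8.97 in Norrin KO, all within or close to the wild-type range. The differences of 0.24, 0.26 and −0.08 did not pass (adjusted p = 0.387, 0.412 and 0.783). Its second probe set, 1426732_at, was dim on most arrays but at 7.39 on Norrin KO 1, with 5.45 and 4.45 on the other Norrin KO arrays and 3.94 to 4.79 in wild type. That probe set was higher in Norrin KO by 1.45 (adjusted p = 0.0282 over probe sets), and Norrin KO 1, the array with the wide actin gap, had its highest value. The part of RNA quality in this difference was not tested.

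Vtn, which encodes the matrix protein vitronectin, a ligand of αv integrins that is also secreted by the liver into plasma, showed the largest change of the 10 members in Fz4-/-, in Norrin KO and over the mean of the mutants. Wild-type arrays were at 12.56, 12.70 and 12.89 (lowest, median, highest). Fz4-/- arrays were at 10.86, 10.55 and 10.72, Lrp5-/- arrays at 11.59, 12.11 and 11.93, and Norrin KO arrays at 10.81, 10.16 and 9.99. No mutant array reached the lowest wild-type array, and the Lrp5-/- arrays lay between wild type and the other mutants. Vtn fell by 2.01 ± 0.173 (SE) on the log2 scale in Fz4-/- (adjusted p = 1.48e-06), by 0.84 ± 0.173 in Lrp5-/- (adjusted p = 0.00458) and by 2.40 ± 0.173 in Norrin KO (adjusted p = 2.36e-07, limma).

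The second Vtn probe set, 1455098_a_at, showed the same order. It was at 11.68 to 12.06 in wild type, at 9.70, 9.63 and 9.63 in Fz4-/-, at 10.39, 11.29 and 11.23 in Lrp5-/-, and at 8.54, 8.83 and 8.37 in Norrin KO. On this probe set the 4 groups did not overlap, with differences from wild type of −2.22, −0.90 and −3.30, and Norrin KO was below Fz4-/- (by 1.08, adjusted p = 0.0250 over probe sets). The Vtn falls in Fz4-/- and Norrin KO passed in every other setting tried. With the chosen probe set the differences were −2.10 to −1.93 and −2.73 to −2.23, and with the mean of both probe sets −2.11 and −2.85. The Lrp5-/- fall was lost in 3 of 32, and without Lrp5-/- 1, Lrp5-/- 3 and wild type 4 it was −0.62 (adjusted p = 0.308).

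The level of Vtn was also read within each array, as its log2 signal less the mean of Pdgfrb, Rgs5 and Notch3, members that change less. This difference was 0.26 to 0.44 on the wild-type arrays. It was −2.26 to −1.91 in Fz4-/-, −1.07 to −0.67 in Lrp5-/- and −2.67 to −1.10 in Norrin KO, so that the ranges of wild type and every mutant were apart. The mean of the other 3 genes was 12.27 to 12.50 in wild type, 12.64 to 12.81 in Fz4-/-, 12.66 to 12.78 in Lrp5-/- and 11.91 to 12.66 in Norrin KO. Since these genes were taken as members that change less, the separate ranges restate the fall of Vtn and are no further support. The pericyte members changed unequally in these pools, as their own differences from wild type show. With the mean of Kcnj8, Abcc9 and Higd1b as a covariate, Vtn was at −2.07 in Fz4-/-, −0.92 in Lrp5-/- and −2.43 in Norrin KO, and the Lrp5-/- value did not pass (adjusted p = 0.139).

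**Figure D3:**
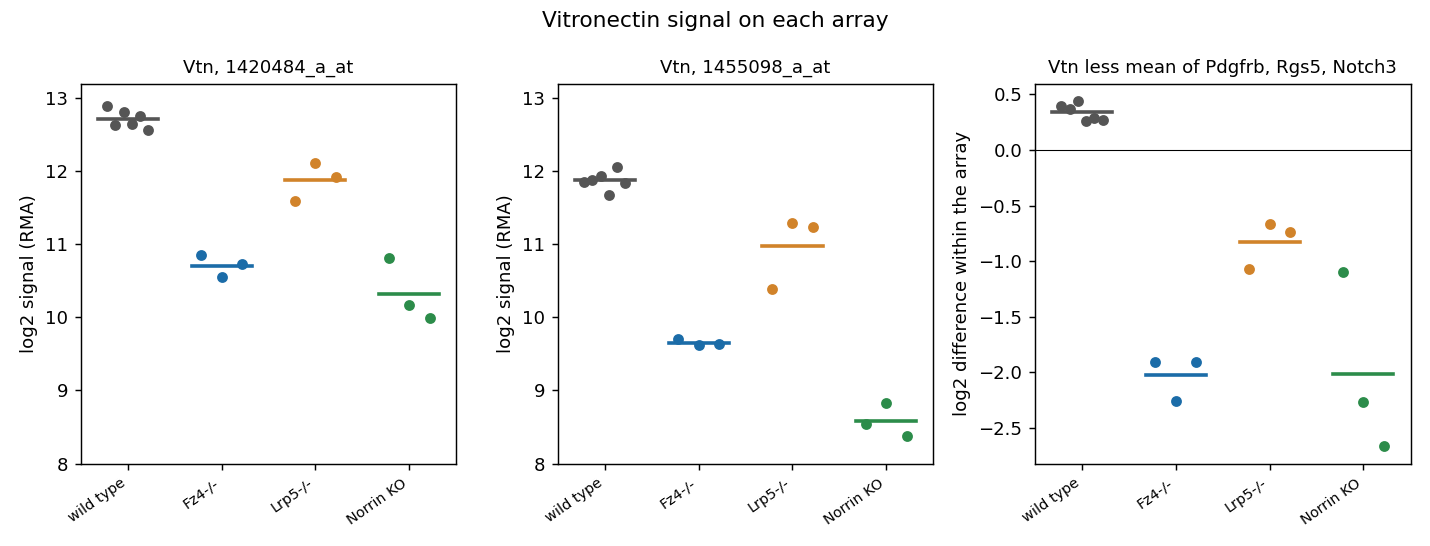
Log2 signal of both Vtn probe sets and, at right, Vtn less the mean of Pdgfrb, Rgs5 and Notch3 within each array, 1 point per array and a bar at the group mean. All 6 wild-type arrays lie at 0.26 to 0.44 in the right panel and all mutant arrays at −0.67 or lower.

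Acta2, which encodes smooth muscle α-actin, hardly differed between groups. Wild type was at 12.61 to 13.04 (median 12.90), Fz4-/- at 12.87, 12.65 and 12.75, Lrp5-/- at 12.25, 12.98 and 12.91, and Norrin KO at 12.95, 12.85 and 12.80. The differences were −0.13, −0.17 and −0.01, with 95% intervals of −0.46 to 0.21, −0.50 to 0.17 and −0.35 to 0.33. Those intervals leave room for a change of up to 0.50 on the log2 scale. Its 2 further probe sets were dim, at 3.26 to 6.76 over all arrays, and did not pass.

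Myh11, the smooth muscle myosin heavy chain, was at 10.95 to 11.71 (median 11.37) in wild type. Fz4-/- was at 11.39, 10.95 and 11.31, Lrp5-/- at 10.54, 11.46 and 11.04, and Norrin KO at 11.44, 10.63 and 10.74, all overlapping wild type. The differences were −0.15, −0.35 and −0.43 (adjusted p = 0.713, 0.413 and 0.196). The dimmer probe set 1418122_at was lower in Norrin KO, at 6.29, 6.85 and 6.69 against 6.80 to 7.74 in wild type, a fall of 0.81 that passed (adjusted p = 0.00917 over probe sets) with 1 array inside the wild-type range. With the mean of both probe sets Myh11 also passed in Norrin KO, at −0.62 (adjusted p = 0.014, limma).

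Tagln, which encodes the actin-binding protein transgelin of smooth muscle, was at 12.58, 12.95 and 13.09 (lowest, median, highest) in wild type. It was at 12.81, 12.35 and 12.56 in Fz4-/-, at 11.99, 12.60 and 12.60 in Lrp5-/-, and at 11.94, 12.25 and 11.99 in Norrin KO. All Norrin KO arrays lay below the lowest wild-type array, and the other mutants reached into the wild-type range. Tagln fell by 0.83 ± 0.171 (SE) in Norrin KO (adjusted p = 0.0026). It was at −0.31 in Fz4-/- (adjusted p = 0.252) and at −0.49 in Lrp5-/- (adjusted p = 0.0795), and over the mean of the mutants it fell by 0.54 (adjusted p = 0.00578). With the actin gap in the fit the Norrin KO difference was −0.67 (adjusted p = 0.0755).

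The mutants were also set against each other, 30 differences over the 10 members. Of these 3 passed, 2 for Vtn and 1 for Cspg4. The share of all genes past the test was 0.225% between Fz4-/- and Lrp5-/-, 2.32% between Fz4-/- and Norrin KO and 11.9% between Lrp5-/- and Norrin KO. Vtn was lower in Fz4-/- than in Lrp5-/- by 1.16 (adjusted p = 0.0270) and higher in Lrp5-/- than in Norrin KO by 1.55 (adjusted p = 0.000938), with no overlap of arrays. The first of these lost its call in 12 of 31 other settings, among them without any of the Fz4-/- arrays or without Lrp5-/- 2 or 3, and the second in none. Cspg4 was lower in Lrp5-/- than in Norrin KO by 0.77 (adjusted p = 0.0480), with 1 overlapping pair of arrays, and lost that call in 24 of 31 settings. Pdgfb in Lrp5-/- was 0.64 below Norrin KO, which did not pass (adjusted p = 0.0622).

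On every probe set with its own test, 5 of the 22 member probe sets passed over the mean of the mutants, where 12.6% of all probe sets were higher and 8.21% lower. The brighter Cspg4 probe set rose. The brighter Pdgfb probe set, the Tagln probe set and both Vtn probe sets fell. Without Norrin KO 1 the count was 10, with 6 higher and 4 lower.

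Among the members, arrays of the same group varied together in sets. After group means were subtracted, Pearson r over the 15 arrays was 0.88 between Acta2 and Tagln, 0.77 between Acta2 and Myh11 and 0.83 between Pdgfrb and Notch3. Vtn followed the contractile Myh11 (0.88) and ran opposite to Rgs5 (−0.79). Norrin KO 1, with the wide actin gap, had the highest Vtn and Myh11 of its group and the lowest Rgs5, Pdgfrb and Notch3. The r values without that array were not computed. All these r values are descriptions, since genes on 1 array share its RNA and its normalization.

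Other genes of the same cells were described from lists chosen with earlier results of these data known. Of 17 further pericyte genes measured, 8 rose and 2 fell over the mean of the mutants, with a median change of 0.32 beside −0.01 for all genes, of which 14% rose and 9.91% fell. Anpep, aminopeptidase N of pericytes and myeloid cells, rose by 1.53 ± 0.154 (SE, adjusted p = 3.79e-06). Cd248, the surface protein endosialin of pericytes and fibroblasts, rose by 1.31 ± 0.139 (adjusted p = 6.62e-06). Abcc9, the sulfonylurea receptor of the pericyte potassium channel, rose by 0.71 (adjusted p = 0.000285), while Kcnj8, the pore of that channel, was at 0.32 (adjusted p = 0.0596).

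The genes of this list that fell were both forkhead factors, Foxf2 by 1.27 (adjusted p = 1.87e-06) and Foxc1 by 0.62 (adjusted p = 0.00064, named after its values were seen). Which cells of the pools, endothelial or mural, gave their signal was not tested. A second, very dim Foxf2 probe set was at 0.07 and did not pass. By genotype 8 of the 17 rose and 3 fell in Fz4-/-, 6 rose and 1 fell in Lrp5-/-, and 8 rose and 2 fell in Norrin KO. Without Lrp5-/- 1, Lrp5-/- 3 and wild type 4 the Lrp5-/- counts were 4 and 0. With the macrophage marker mean in the fit 4 rose and 2 fell over the mean of the mutants.

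**Figure D4:**
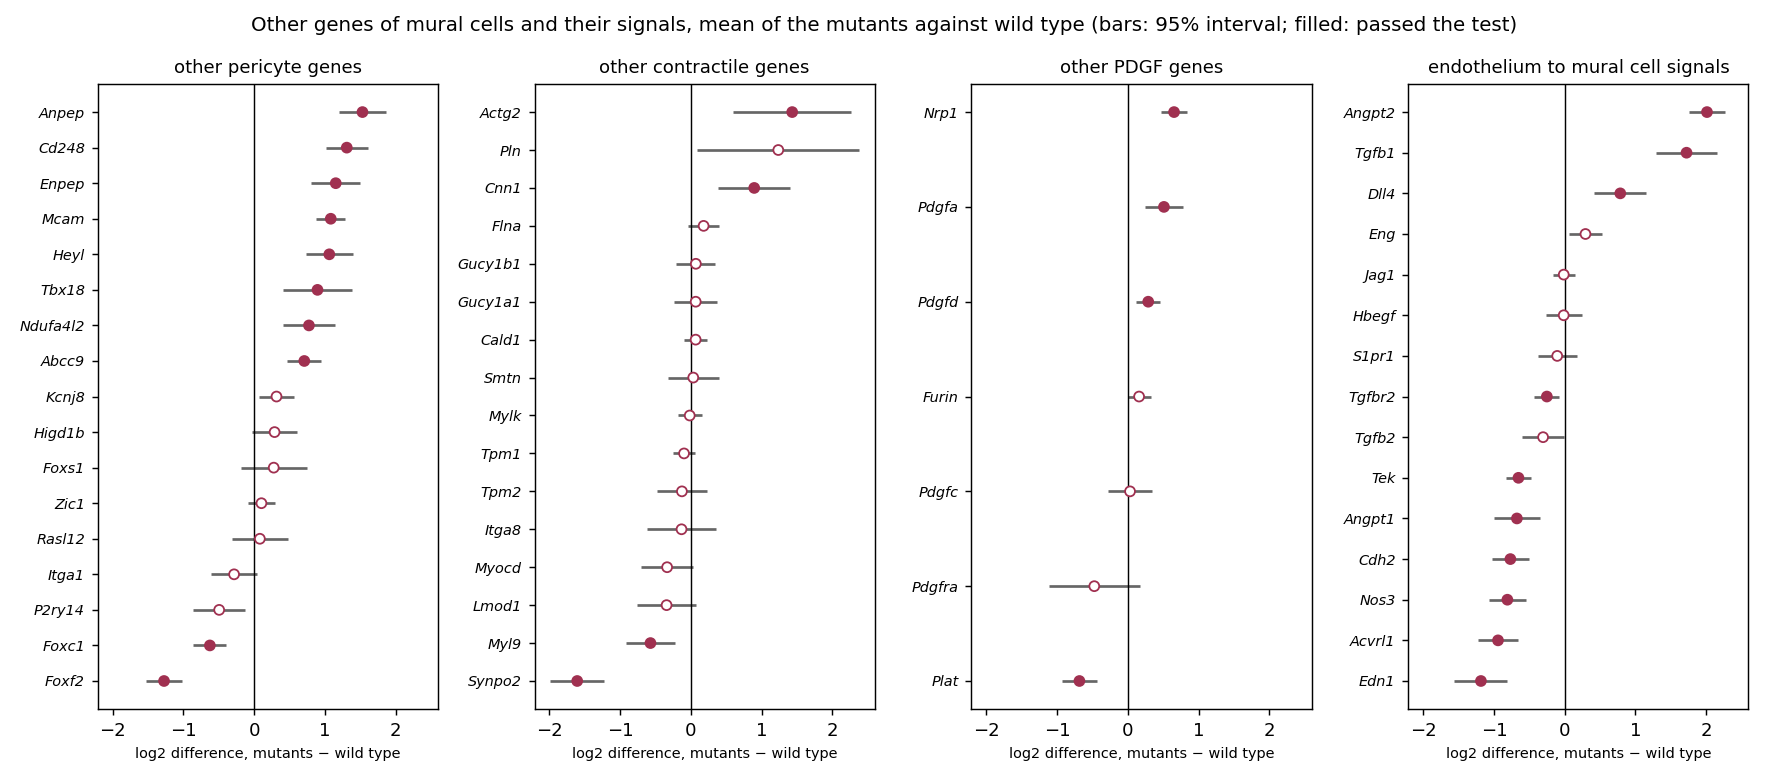
Log2 difference, mean of the mutants less wild type (x axis), of each gene in 4 lists, with 95% intervals, where filled points passed the test. Of the other pericyte genes 8 of 17 rose and 2 fell. Of the genes for signals between endothelium and mural cells, ligands and receptors alike, 3 of 15 rose and 7 fell. Among all genes 14% rose and 9.91% fell.

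Of 16 further contractile genes 2 rose and 2 fell over the mean of the mutants, with a median of 0.01, shares near those of all genes (14% and 9.91%). Actg2, smooth muscle γ-actin, rose by 1.43 ± 0.388 (SE, adjusted p = 0.0141) and Cnn1, calponin, by 0.89 (adjusted p = 0.0128). Synpo2, an actin-bundling protein of muscle, fell by 1.61 (adjusted p = 1.11e-05), and Myl9, a myosin light chain named after its values were seen, by 0.57 (adjusted p = 0.0168). The Synpo2 probe sets disagreed, from −3.44 to 0.56. With the macrophage marker mean in the fit none rose and 1 fell.

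In the PDGF pathway 3 of the 7 other genes rose and 1 fell over the mean of the mutants, where 14% of all genes rose and 9.91% fell. Nrp1, a coreceptor that binds several growth factors, rose by 0.65 (adjusted p = 3.99e-05), the ligand gene Pdgfa by 0.51 (adjusted p = 0.00692) and the ligand gene Pdgfd by 0.29 (adjusted p = 0.0138). Plat, tissue plasminogen activator, which can activate PDGF-CC, fell by 0.68 (adjusted p = 0.000446). Pdgfc was at 0.03 (adjusted p = 0.908). Pdgfra, the receptor of fibroblasts and glial precursors, was at −0.47 (adjusted p = 0.295) over the mean, fell by 1.85 in Lrp5-/- (adjusted p = 0.00687) and was at 1.05 in Norrin KO (adjusted p = 0.0709). Without Lrp5-/- 1, Lrp5-/- 3 and wild type 4 the Lrp5-/- difference of Pdgfra was −1.02 and did not pass (adjusted p = 0.508). With the macrophage marker mean in the fit it was −1.63 (adjusted p = 0.0742), and over the mean of the mutants 1 gene of the 7 rose (Nrp1) and 1 fell (Plat).

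Of 15 genes for signals between endothelium and mural cells 3 rose and 7 fell over the mean of the mutants, with a median of −0.25. The shares of all genes were 14% and 9.91%. Angpt2, the angiopoietin that opposes Tie2 signalling, rose by 2.01 ± 0.116 (SE, adjusted p = 1.06e-08), and Angpt1, the agonist made by mural cells, fell by 0.68 (adjusted p = 0.00455). Their receptor gene Tek fell by 0.65 (adjusted p = 4.13e-05). Tgfb1 rose by 1.72 (adjusted p = 1.54e-05), although its second probe set was at −0.48, and Dll4, a Notch ligand named after its values were seen, rose by 0.79 (adjusted p = 0.00365). Edn1, the constrictor endothelin 1, fell by 1.18 (adjusted p = 0.000154), and Jag1, the ligand that Notch3 receives from endothelium, was at −0.01 (adjusted p = 0.919). With the macrophage marker mean in the fit 3 rose and 3 fell.

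Of 12 macrophage markers 8 rose and none fell over the mean of the mutants (limma, and none was lower at an unadjusted p under 0.05), and their mean log2 signal was 8.66 to 10.13 in wild type, 10.35 to 10.86 in Fz4-/-, 9.96 to 10.50 in Lrp5-/- and 10.30 to 10.98 in Norrin KO. Of 4 red cell markers 2 fell and none rose (none was higher at an unadjusted p under 0.05), and their mean was 5.98 to 6.66 in wild type and 4.66 to 5.97 in the mutants. The macrophage and red cell means of Fz4-/- and Norrin KO thus did not overlap wild type. The mean of 11 rod markers was 5.54 to 6.28 in wild type and 5.32 to 7.09 in the mutants, which overlapped, and 1 of them rose (Gnat1, by 1.44, adjusted p = 0.000198). Of 10 fibroblast markers 1 rose and 3 fell, with means of 8.90 to 9.19 in wild type, 8.45 to 8.68 in Fz4-/-, 8.20 to 8.49 in Lrp5-/- and 8.83 to 9.26 in Norrin KO. Of 9 pigment epithelium markers 2 rose and none fell (1 was lower at an unadjusted p under 0.05), and of 11 Müller cell and astrocyte markers 2 rose and 2 fell. Beside all these marker counts, 14% of all genes rose and 9.91% fell over the mean of the mutants. With the macrophage markers in the fit Vtn was at −1.72 over the mean of the mutants, and with the rod markers at −1.86, and it passed in both (adjusted p = 0.000233 and 1.31e-06). In Fz4-/- and Norrin KO the macrophage mean did not overlap wild type, so the macrophage fit cannot tell its part from that of genotype. The part of these cells in the members' values, Vtn included, was not tested.

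Among genes above the median level, those whose pattern over the 15 arrays was most like Pdgfb were Prr5l (Pearson r = 0.93), Tor4a (0.92), Trmt1l (0.92), Megf6 (0.91) and Snx19 (0.90). The mean of Acta2, Myh11 and Tagln was most like Rcan2 (0.95), Snf8 (0.91), Iscu (0.91), Rai2 (0.90) and Plekhj1 (0.89). The mean of the 6 pericyte members was most like Pelo (0.87), Sntb1 (0.85), Gadd45g (0.82), Rbm17 (0.82) and Plxdc1 (0.81). Each set of r values is the highest of 9096, 9094 and 9091 genes searched, in that order, and describes these arrays only.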

How the data were processed

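The authors deposited 1 table of log2 signals for 45101 probe sets on 15 arrays. Per the submitters' processing notes the values came from RMA, whose version is not given in the sources used here. It was used without further scaling. In the platform annotation 34958 probe sets had 1 symbol, 932 several and 9211 none. Each of 18194 genes was read from its probe set of highest mean signal. One fit with 4 group means was made in limma 3.58.1 under R 4.3.3 (lmFit, contrasts.fit, eBayes), with Benjamini-Hochberg adjustment over all genes, and a second over all probe sets with 1 symbol. It was tested on simulated data. The members, lists, tests and alternatives were chosen with earlier results of these data known. Named were all members and probe sets, the 3 largest changes past the test in each other list, 10 fixed genes, and the 5 genes most like each set of members. Alternatives were other scaling, probe set choices, moderation, blocks, covariates, a 2-fold minimum, and leaving out arrays. The Kcnj8, Abcc9 and Higd1b covariate, the endothelial covariate and the other lists' alternatives were added after the data were seen. The number of arrays limits the precision.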

Additional observations from a re-analysis of the deposited data

Results flagged for a closer look

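Differences between mutants passed the test for 2 members. Vtn was at −1.16 in Fz4-/- less Lrp5-/- and at 1.55 in Lrp5-/- less Norrin KO, and Cspg4 was at −0.77 in Lrp5-/- less Norrin KO, so that for both genes the Lrp5-/- mean was nearer to wild type than the Norrin KO mean. For Cspg4 the arrays of the 2 mutants overlapped, and that call was lost in 24 of 31 other settings. On the Pdgfrb probe set 1436970_a_at, wild type 5 was the highest of the 6 wild-type arrays at 12.17 and stood far from the rest. It was the only such array among 22 probe sets, and chance alone marks about 1 in 20.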

How the results depend on the processing

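The number of arrays per mutant limits these results. Of 2180 member values recomputed, 1998 kept their direction and their side of the threshold, 66 without a call changed sign, 84 lost a call, 32 gained one and none with a call changed direction. In Fz4-/- 2 members passed, against 1 (Vtn) with quantile normalization again, centring, the mean of all probe sets, every probe set on its own, the replicate block, the macrophage, 3′ to 5′ gap or Kcnj8, Abcc9 and Higd1b covariate, or a 2-fold minimum, and 4 with eBayes trend and robust. In Lrp5-/- 2 passed, against 4 with matched arrays as a block (Pdgfb, Pdgfrb, Tagln and Vtn), 1 with the rod covariate, and 0 without the 3 arrays that stood apart, with the 2-fold minimum or with the Kcnj8, Abcc9 and Higd1b covariate. The macrophage covariate also gave 2 in Lrp5-/-, but these were Tagln and Vtn, without Pdgfb. In Norrin KO 3 passed, against 1 with the gap covariate or the 2-fold minimum, and 4 with the mean of all probe sets (Cspg4, Myh11, Tagln and Vtn). Over the mean of the mutants 4 passed, against 1 with the replicate block, the 2-fold minimum or the Kcnj8, Abcc9 and Higd1b covariate, and 2 with the macrophage covariate. Of the differences between mutants 3 passed, against 5 with only genes above the median, 6 with eBayes trend and robust, and 1 with only the groups compared, the replicate block, the rod covariate or without the 3 arrays. Of the member probe sets 5 passed, against 2 with the replicate block, the 2-fold minimum or the Kcnj8, Abcc9 and Higd1b covariate, 3 with the macrophage covariate and 8 with the gap covariate. Leaving out each array gave 1 to 3 in Fz4-/-, 2 to 3 in Lrp5-/-, 3 to 3 in Norrin KO, 4 to 6 over the mean, 1 to 3 between mutants and 5 to 10 probe sets (10 without Norrin KO 1). The cause of these changes was not tested. Over all groups, replicate numbers gave no steady pairing. Deviations of same-numbered arrays from their group means correlated at −0.238 to 0.381. Fz4-/- with wild type 1 to 3 and Lrp5-/- with wild type 4 to 6, matched after the data were seen, gave 0.0601 to 0.661. The Fz4-/- pairs of this matching are same-numbered, so their values stand in both ranges. By the signals of spike-in controls, the nearest wild-type array to Fz4-/- 1, Fz4-/- 2 and Lrp5-/- 3 was wild type 5, not the matched array.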
